A study of Mus musculus with 28 samples.

Results

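The UDP-glucuronosyltransferases (Ugt genes) and the cytosolic sulfotransferases (Sult genes) were followed in livers and hepatocytes of mice that lacked or kept FAK, focal adhesion kinase, encoded by Ptk2. Members were the rows of the gene tables whose symbol is Ugt or Sult followed by a subfamily number, a letter and an isoform. The rule read symbols only, but it was set with a rise of Sult1e1 in some livers lacking FAK already known. This gave 39 genes, 21 Ugt and 18 Sult, of 35275 genes in the tables. All mice were FVB and carried FAKfl/fl, so every group shared the floxed gene. In the Bred arms the KO mice were FAKfl/fl;Alb-Cre+ and the WT mice their FAKfl/fl;Alb-Cre- littermates, and Cre under the albumin promoter acts in hepatocytes and cholangiocytes from fetal liver onward. In the Virus arms FAKfl/fl;Alb-Cre- mice received AAV8-TBG-Cre (KO) or AAV8-TBG-Null (WT) by tail vein, a vector whose TBG promoter is active in hepatocytes only, so that cholangiocytes kept FAK. DDC, a porphyrinogenic compound that causes slow cholestatic injury, was fed at 0.1% w/w for 4 to 8 weeks to both Bred and both Virus groups, starting 2 weeks after the vector in the latter. The unfed mice were all of the Alb-Cre cross, 6 to 8 weeks old, and gave whole liver (Tissue) and isolated hepatocytes. The unfed groups held 4 libraries each and the DDC groups, all whole liver, 3 each, 28 libraries in all.

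Both families make lipophilic molecules water-soluble so that they leave in bile or urine. Ugt enzymes sit in the membrane of the endoplasmic reticulum and transfer glucuronic acid from UDP-glucuronate onto bilirubin, bile acids, steroids and drugs, while Sult enzymes are cytosolic and transfer sulfate from the donor PAPS onto phenols, steroids, catecholamines and thyroid hormones. The Ugt1a genes each have a first exon and promoter of their own and splice to a common set of last exons, whereas the Ugt2, Ugt3 and Sult genes are separate. In mouse liver Sult1e1, the estrogen sulfotransferase, is known for being low in the healthy adult and inducible in metabolic and inflammatory disease, and the Sult2a genes for being higher in females.

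Depth was 11162678 to 20428773 counts per library. Ptk2 was lower in KO than in WT with no overlap in each of the 4 pairs of groups, with means in FPKM (fragments per kilobase of transcript, scaled to library size) of 5.22 in WT and 1.31 in KO whole livers of unfed mice, 5.91 and 1.08 in hepatocytes, 6.50 and 2.16 in the Bred livers, and 5.99 and 2.81 in the Virus livers. The highest Xist level was 0.0148 FPKM and the lowest Ddx3y level 9.11 FPKM, so all 28 libraries had the pattern of male tissue. In the hepatocyte preparations the summed FPKM of 7 bile duct markers was 2.21 to 3.0 in WT and 1.72 to 6.06 in KO, against 8.00 to 15.6 and 18.3 to 26.8 in the whole livers, with Krt7 at 0 in both hepatocyte groups. Tissue WT replicates 2 and 4 stood apart from the other whole-liver libraries, with a rank correlation between gene length and level of 0.294 and 0.268 against -0.489 and -0.348 in replicates 1 and 3. Results that rest on them were recomputed without both.

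The promoters of Sult1e1, which was higher in DDC-fed Bred KO livers, and of 4 Ugt genes that were lower there are shown first, as the 250 bases before the start of transcription in RefSeq (GRCm38.p6), 5′ to 3′ on the strand of the gene. They lie at chr5:87591612-87591861 (Sult1e1, minus strand), chr1:88070529-88070778 (Ugt1a9, plus strand), chr5:87337196-87337445 (Ugt2a3, minus strand), chr5:87092556-87092805 (Ugt2b36, minus strand) and chr5:87140341-87140590 (Ugt2b5, minus strand). In Ugt1a9 and Ugt2a3 capitals mark the core letters GTTAAT of the HNF1 motif or their reverse complement, and in Ugt2b36 and Ugt2b5 a run of 24 identical bases.
Sult1e1: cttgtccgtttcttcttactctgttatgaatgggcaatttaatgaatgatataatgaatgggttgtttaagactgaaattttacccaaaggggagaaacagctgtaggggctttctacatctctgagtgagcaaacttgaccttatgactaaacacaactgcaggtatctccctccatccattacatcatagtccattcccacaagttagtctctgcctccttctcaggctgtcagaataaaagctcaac
Ugt1a9: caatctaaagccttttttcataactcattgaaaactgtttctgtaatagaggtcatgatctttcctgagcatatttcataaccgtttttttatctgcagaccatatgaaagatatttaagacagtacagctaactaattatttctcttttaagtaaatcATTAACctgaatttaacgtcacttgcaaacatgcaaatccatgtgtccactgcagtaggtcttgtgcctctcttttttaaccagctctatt
Ugt2a3: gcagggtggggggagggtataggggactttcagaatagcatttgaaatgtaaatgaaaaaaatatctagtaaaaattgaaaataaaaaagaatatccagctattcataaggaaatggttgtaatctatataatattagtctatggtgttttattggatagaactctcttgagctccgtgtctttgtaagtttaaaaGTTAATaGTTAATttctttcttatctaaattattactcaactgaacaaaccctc
Ugt2b36: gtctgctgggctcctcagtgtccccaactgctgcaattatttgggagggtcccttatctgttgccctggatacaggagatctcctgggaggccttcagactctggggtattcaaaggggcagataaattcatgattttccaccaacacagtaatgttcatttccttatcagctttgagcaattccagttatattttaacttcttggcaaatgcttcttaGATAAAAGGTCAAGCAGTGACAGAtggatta
Ugt2b5: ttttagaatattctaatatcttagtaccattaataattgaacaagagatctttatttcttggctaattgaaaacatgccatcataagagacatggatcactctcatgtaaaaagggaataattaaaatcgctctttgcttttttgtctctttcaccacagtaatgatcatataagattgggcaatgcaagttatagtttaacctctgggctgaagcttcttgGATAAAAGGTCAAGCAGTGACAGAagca
Of the 39 members 33 had a promoter entry, 35 promoters in all, and Ugt1a6b and Ugt3a2 had none. GTTAAT on either strand was in 12 of the 35 (34.3%) and in 6.43% of all 32851 promoters of the same length, which were not matched for base composition. The 12 included the related Sult2a3, Sult2a4, Sult2a5 and Sult2a6, but neither Sult1e1 nor any Ugt2b gene. It lay at -91 to -86 in Ugt1a9 on the reverse strand and at -54 to -49 and -47 to -42 in Ugt2a3. The run GATAAAAGGTCAAGCAGTGACAGA was held by Ugt2b36, Ugt2b37 and Ugt2b5. Among other letters searched on both strands, AGTTCA (nuclear receptor core) was in 22.9% of member promoters and 11.8% of all, GCGTG (AHR core) in 17.1% and 28.2%, TTCNNNGAA (STAT5 core) in 5.71% and 7.02%, TGACNNNGC (antioxidant response element core) in 0% and 10.2%, and CAAAGTCCA (HNF4 core) in 0% and 0.384%. None of these motifs contains another, and the matches describe letters only.

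Several members cannot be counted apart. The 9 Ugt1a genes, on mm10 chromosome 1, share their last exons, and only 39.4 to 49.7% of each gene's exonic length is its own. Of the 50-base words in its transcripts, Ugt1a6b shared 79.8% with other genes, mostly Ugt1a6a, Ugt2b5 shared 41.7%, mostly with Ugt2b38, and Sult2a2 shared 62.1%. Ugt2a1 shared 93.6%. Sult1a1 shared 6.58% and Ugt3a2 7.01%, while Sult1e1, Sult1b1, Sult1d1 and Ugt2b1 shared 0%. Values of the Ugt1a genes, of Ugt2b5 with Ugt2b38, of the Sult2a genes and of Ugt2a1 are therefore less certain as single-gene levels than those of the others. Sult1e1 lies at 87575968 to 87591611 of mm10 chromosome 5 on the minus strand, 6941 bases from Sult1d1, in a stretch of 701.844 kb that also holds Sult1b1 and 9 Ugt2 members.

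Ugt2b5, Ugt2b1 and Ugt2b36 were the most abundant members in unfed whole liver. In Tissue WT the mean level, per length as FPKM, was 635 ± 156 for Ugt2b5, 555 ± 156 for Ugt2b1 and 490 ± 114 for Ugt2b36 (SD, n = 4), 3 neighbours in the order that did not differ beyond their spread. A second tier followed, in which Ugt3a2 had 156 ± 17.7 FPKM, Sult1a1 155 ± 39.5, Ugt2a3 143 ± 19.2, Ugt2b34 141 ± 5.43 and Ugt2b35 132 ± 40.9, again within each other's spread. Ugt1a9 led the Ugt1a genes at 101 ± 10.3 FPKM, far above Ugt1a6b at 8.88 ± 1.62 and Ugt1a1, the bilirubin-conjugating enzyme, at 6.60 ± 1.45. Among the Sult genes Sult1a1, which sulfates phenols, was followed by Sult1d1, which takes catecholamines, at 44.3 ± 12.2 FPKM and by Sult5a1 at 30.0 ± 11.7. Sult1b1, which sulfates thyroid hormones, was lower at 14.4 ± 3.52 FPKM.

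The remaining members were barely detected. Of the 39, 22 had a mean above 1 FPKM in at least 1 group and 17 in no group. 11 members stayed under 10 counts in every library, and 1 of them, Sult1c1, had no count at all. These silent genes included the hydroxysteroid sulfotransferases Sult2a1, Sult2a3, Sult2a4 and Sult2a5, the brain-enriched Sult4a1 and Ugt2a1. Ugt8a, which galactosylates ceramide in myelin, did not exceed 0.209 FPKM. Sult2a7 reached 2.68 FPKM in an unfed library, whereas Sult2a6 was at 0 in all unfed libraries and at 0.0527 to 1.35 FPKM in all 12 DDC libraries.

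**Figure D1:**
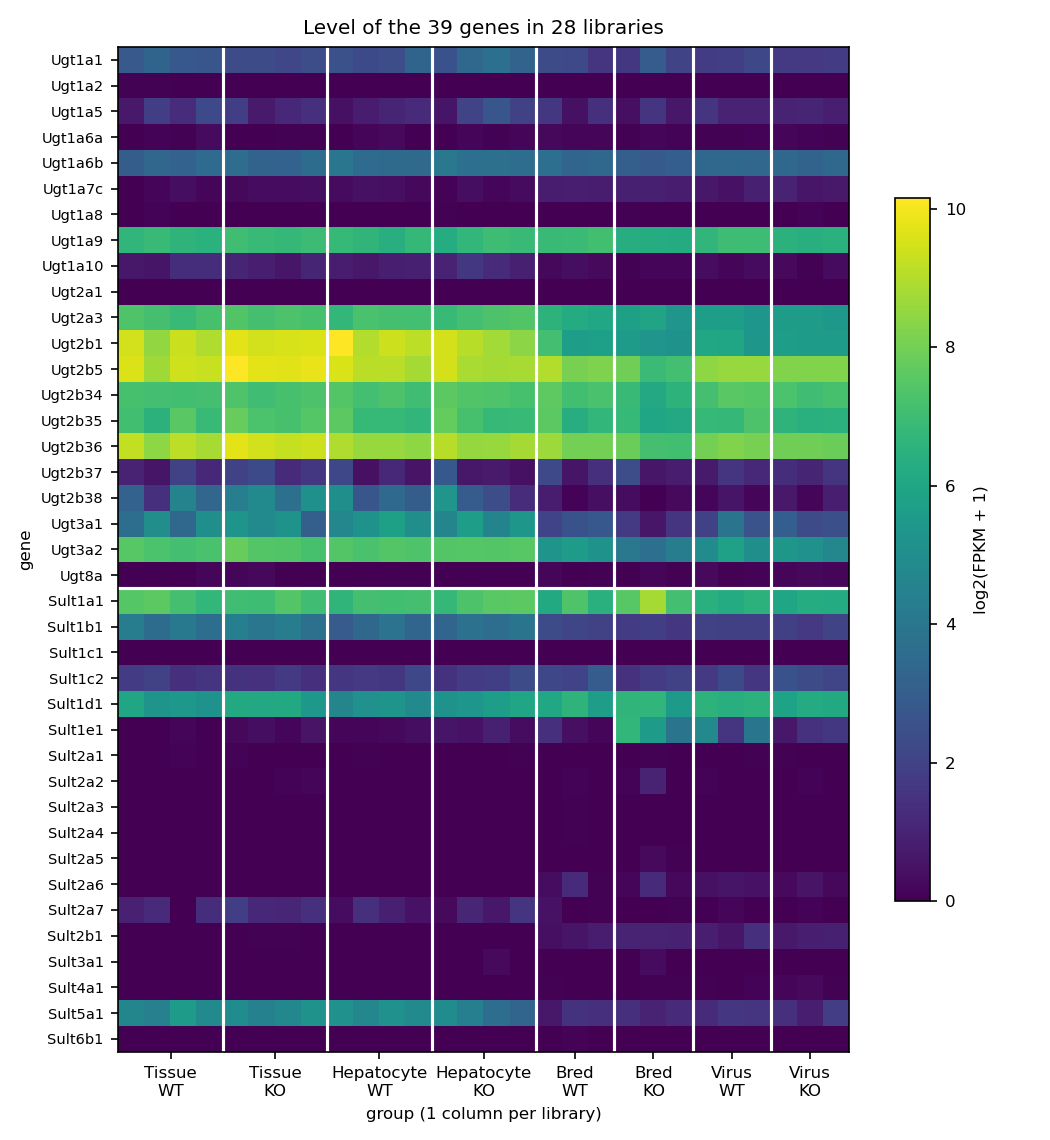
Level of each of the 39 genes (rows, Ugt above the white line and Sult below it) in each of the 28 libraries (columns, in 8 groups), coloured by log2(FPKM + 1). Ugt2b5, Ugt2b1 and Ugt2b36 are the brightest rows in the unfed groups, and Sult5a1 is dimmer in the DDC groups than there. Sult1e1 is bright in the 3 Bred KO libraries, which had 13.9 to 105 FPKM.

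Summed over the Ugt genes, the mean level was 2406 FPKM in Tissue WT and 3265 in Tissue KO, 2453 in WT hepatocytes and 2284 in KO hepatocytes, and it was lower in the DDC groups, at 1297 in Bred WT, 714 in Bred KO, 1234 in Virus WT and 1011 in the livers given Cre by vector. The Sult sums, in the same order of groups, were 246, 252, 204, 242, 189, 400, 198 and 151 FPKM. Bred KO livers thus had the lowest mean Ugt sum and the highest mean Sult sum of the 8 groups. Per library the Ugt sum was 600 to 923 FPKM in Bred KO and 993 to 1045 in Virus KO, the next lowest mean. The Sult sum was 205 to 603 FPKM in Bred KO, which overlapped the 148 to 270 of Bred WT.

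In unfed mice, whether loss of FAK alone changed these enzymes was asked in whole liver and in isolated hepatocytes. No member passed the test (edgeR quasi-likelihood, Benjamini-Hochberg adjusted p under 0.05) among the 22 tested, 16 Ugt and 6 Sult, in whole liver, in hepatocytes, over both materials together or in the difference between the materials. Over all genes tested, 0.008%, 0.32%, 0.0253% and 0% were called in these 4 comparisons. The model over both materials held genotype only, so the difference between the materials stayed in its spread. DESeq2 and limma also called 0 members in each, and at an unadjusted p under 0.05 there were 3 members in whole liver, 5 in hepatocytes, 1 over both and 4 in the difference. Over all genes these unadjusted counts were 2017, 1119 and 1002 of 12507 in whole liver, hepatocytes and the difference. Over both materials the count was 704 of 11857. The median log2 fold change of the tested members was 0.21 in whole liver, 0.07 in hepatocytes and 0.12 over both, against -0.01 for all genes in each.

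The members nearest to the threshold in whole liver were Ugt2b36, Ugt1a1 and Ugt2b5. Ugt2b5 had 793, 423, 694 and 633 FPKM in the WT livers and 1145, 864, 839 and 903 in the KO livers. Every KO value lay above every WT value, yet the log2 fold change of 0.55 ± 0.21 (SE) had an adjusted p of 0.236. Ugt2b36 had 598, 346, 562 and 454 FPKM in WT and 855, 708, 624 and 678 in KO, without overlap in FPKM, with 0.54 ± 0.18 and an adjusted p of 0.198, which became 0.0330 without Tissue WT replicate 1. Ugt1a1 went the other way, at 6.16, 8.75, 5.93 and 5.57 FPKM in WT and 4.08, 4.00, 3.43 and 4.28 in KO, also without overlap, with -0.74 ± 0.29 and an adjusted p of 0.233. Without Tissue WT replicates 2 and 4 the count of called members in whole liver was 0 as well.

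In isolated hepatocytes the same genes did not lead. Sult5a1 had 33.8, 24.9, 34.0 and 28.3 FPKM in WT and 29.7, 19.7, 11.6 and 8.83 in KO, overlapping, with a log2 fold change of -0.88 and an adjusted p of 0.356. Ugt1a5 had 0.355 to 1.31 FPKM in WT and 0.487 to 5.53 in KO, with 1.73 and an adjusted p of 0.390. Sult1d1 had 0.56 and an adjusted p of 0.506 in hepatocytes and 0.52 and 0.742 over both materials. The difference between materials had its smallest p for Ugt1a1 (log2 1.38, adjusted p 0.486) and for Ugt2b1 (-1.03, adjusted p 0.570), and neither passed.

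**Figure D2:**
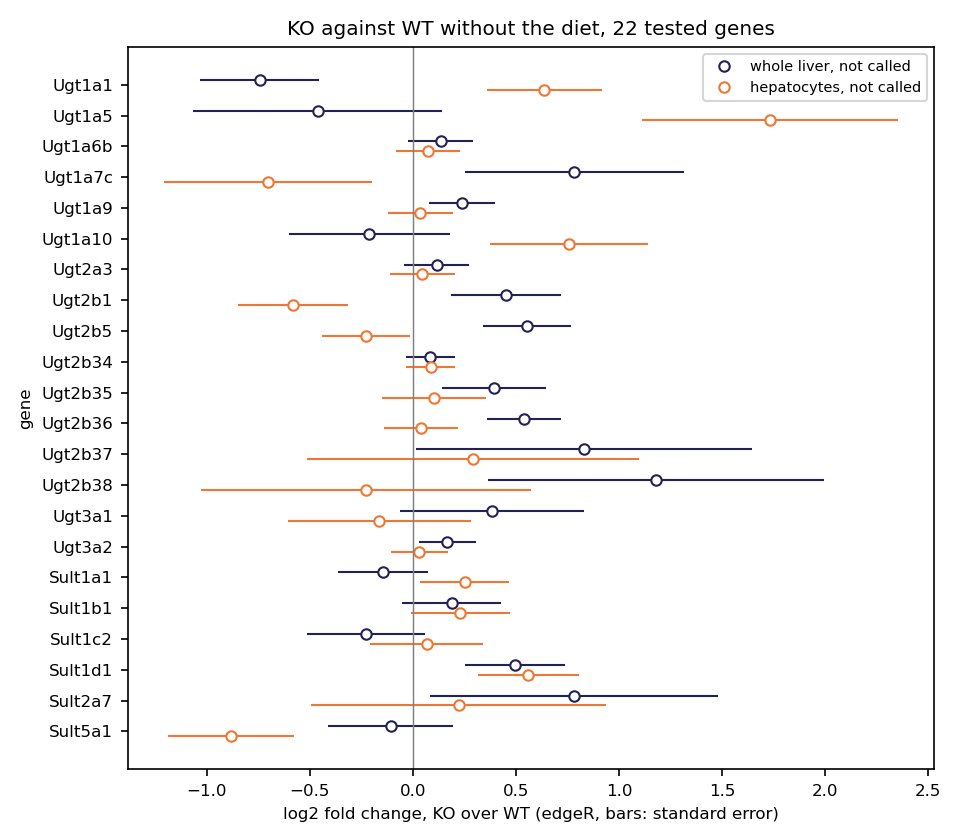
Log2 fold change of KO over WT for the 22 members tested in unfed mice, in whole liver and in isolated hepatocytes, as points with the standard error as bars. All points are open, that is, not called, and the whole-liver median is 0.21.

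No member was called between isolated hepatocytes and whole liver. Between Hepatocyte WT and Tissue WT, where 25.4% of all genes tested were called, 0 of the 22 tested members were. The count was 1 by DESeq2, 0 by limma and 2 at an unadjusted p under 0.05, against 4926 of 12507 genes at that unadjusted p. Ugt1a6b was nearest, with a log2 difference of 0.43 (hepatocyte minus tissue) and an adjusted p of 0.0517, then Sult1b1 with -0.54 and 0.107. When Tissue WT replicates 2 and 4 were left out, 5 members passed, 2 higher and 3 lower in hepatocytes, so this comparison depended on those libraries. In the same comparison 4 of 5 tested bile duct markers and 6 of 6 tested macrophage markers were lower in the hepatocytes.

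Levels in DDC-fed WT livers are set beside those of unfed WT livers without a test, since diet, age and experiment cannot be told apart between the tables. Sult5a1 was 22.2 times higher in Tissue WT than in Bred WT and 16.6 times higher than in Virus WT. Ugt2b1 was 6.92 and 9.80 times higher, and 10.98 times higher than in Bred WT without Bred WT replicate 1. Sult1b1 and Ugt3a2 were 4.17 and 3.87 times higher in Tissue WT than in Bred WT. Ugt3a1 was 4.57 times higher, but 2.32 times without Tissue WT replicates 2 and 4, the libraries that stood apart. Ugt2b38 had 1.56 to 22.1 FPKM in Tissue WT and 0.0777 to 0.695 in Bred WT. Other members were close: Ugt1a9 was 1.22 times, Ugt2b34 1.14 times, Ugt1a6b 1.15 times and Ugt2b35 0.943 times as high in Bred WT as in Tissue WT. Sult2b1, which sulfates cholesterol, was at 0 in all Tissue WT and hepatocyte libraries and at 0.339 to 1.58 FPKM in the DDC libraries. The ordering in DDC-fed WT liver was led by Ugt2b5 and Ugt2b36, with Ugt2b1 no longer in the upper tier.

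On the DDC diet Sult1e1 was higher and 7 Ugt genes were lower in Bred KO livers. Of the 22 members tested there, 15 Ugt and 7 Sult, 8 were called against Bred WT: 1 higher (Sult1e1) and 7 lower (Ugt1a9, Ugt3a2, Ugt2b34, Ugt1a6b, Ugt2b36, Ugt2b5 and Ugt2a3). Over all 13955 genes tested 6.25% were called, 3.17% higher and 3.08% lower. The median log2 fold change was -0.70 over the 22 members and -0.01 over all genes. It was -0.79 over the Ugt genes, of which 14 of 15 had a lower estimate, and 0.11 over the Sult genes, of which 4 of 7 had a higher one. A member passes the count filter through the group where it is high, so these counts describe the tested members and not all 39. 13 of the 22 did not overlap between the Bred groups on the normalised scale, 2 above and 11 below, against 24.5% of all genes in either direction.

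The same-numbered Bred WT and KO libraries deviated together, and with the replicate number as a block 12 members were called, 2 higher and 10 lower. The share of all genes called with the block is not given here, so the added calls cannot be read as particular to the members. The count was 0 when the 2 Bred groups were fitted without the Virus groups, 5 without Bred WT replicate 1, 4 without Bred KO replicate 2 and 4 without Bred KO replicate 3. In whole liver, fewer cells of a type and less RNA per cell cannot be told apart, for these and all following values.

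Sult1e1 had the largest change of the family, and its rise was known when the members were chosen. It had 1.59, 0.350 and 0.121 FPKM in Bred WT livers 1 to 3 and 105, 46.2 and 13.9 in Bred KO livers 1 to 3. Every KO liver lay above every WT liver, and within KO the highest and lowest were several-fold apart. The log2 fold change was 6.20 ± 1.07 (SE) with an adjusted p of 0.00969. Of all genes tested it ranked 3rd by size and 93rd by p, and its size rests on WT livers with 38, 9 and 3 counts. It was 6.30 with the replicate block (adjusted p 0.00532), 5.42 to 7.70 when single libraries were left out, and 6.21 with an adjusted p of 0.0615 when the Bred groups were fitted alone. An exact two-sided permutation test gave p = 0.1, the smallest that 3 against 3 libraries allow.

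Placed in its family, Sult1e1 went from a trace transcript to a main one. It made up 0.0812 to 1.07% of the summed Sult FPKM in Bred WT and 26.7, 7.67 and 6.78% in Bred KO livers 1 to 3. Sult1a1 remained the most abundant Sult in each of those livers. Sult1a1 had 71.6, 162 and 87.6 FPKM in Bred WT livers 1 to 3 and 182, 445 and 138 in KO, overlapping, with same-numbered ratios of 2.54, 2.74 and 1.58. Its log2 fold change of 1.17 had an adjusted p of 0.0990 and did not pass, but with the replicate block it was 1.03 with 0.0103 and was called higher.

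No other Sult gene was called in Bred KO in the unblocked edgeR test of all libraries. Sult1d1, its neighbour on chromosome 5, had 65.7, 97.2 and 48.8 FPKM in WT and 98.3, 102 and 45.8 in KO, a log2 fold change of 0.11 with an adjusted p of 0.856. Sult1b1, farther along the same stretch, had 4.11, 3.34 and 2.91 in WT and 2.39, 2.67 and 2.06 in KO, without overlap, with -0.65 and an adjusted p of 0.0676. Sult1c2 had 3.59, 3.08 and 6.67 FPKM in WT and 1.70, 2.40 and 2.91 in KO. Its log2 fold change of -1.03 had an adjusted p of 0.0799 and, with the replicate block, -1.0 with 0.0376. Sult2b1 (0.74, adjusted p 0.309) and Sult5a1 (-0.20, adjusted p 0.818) did not pass. Sult2a2, under the count filter, had 1.01 FPKM in Bred KO replicate 2 and at most 0.0879 elsewhere, and Sult2a6 was highest in replicate 2 of both Bred groups, at 1.32 FPKM in WT and 1.35 in KO.

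**Figure D3:**
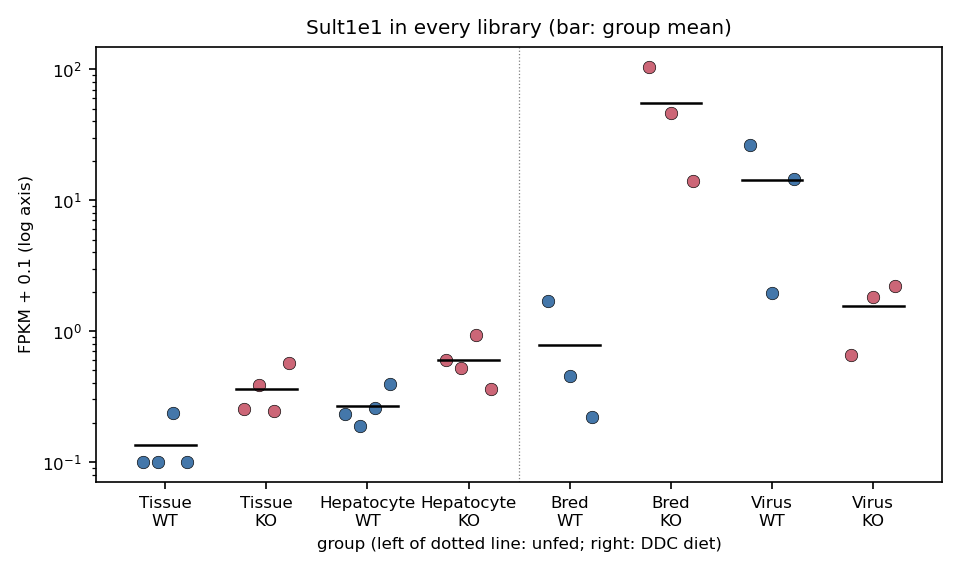
Sult1e1 level in each of the 28 libraries as FPKM + 0.1 on a log axis, with the group mean as a bar, unfed groups left and DDC groups right of the dotted line, WT in blue and KO in red. The 3 Bred KO points (13.9 to 105 FPKM) lie above the 3 Bred WT points (0.121 to 1.59), while the Virus means lie in the opposite order, at 14.2 for WT and 1.46 for KO.

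In the unfed mice, a separate experiment, Sult1e1 was a trace transcript in both genotypes. In Tissue WT it had 0, 0, 2 and 0 counts, and in Tissue KO 3, 6, 3 and 9 counts, or 0.154, 0.286, 0.145 and 0.465 FPKM. The groups did not overlap, and an exact two-sided permutation test gave p = 0.029, the smallest that 4 against 4 allow, or 0.1 after Benjamini-Hochberg adjustment over the 4 pairs of groups. In hepatocytes it had 0.0865 to 0.293 FPKM in WT and 0.259 to 0.838 in KO, overlapping, with an exact permutation p of 0.0571. These levels were too low for the count filter, so edgeR did not test Sult1e1 in unfed mice.

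Among the Ugt1a genes, Ugt1a9 and Ugt1a6b fell in Bred KO. Ugt1a9 had 116, 121 and 134 FPKM in Bred WT and 79.0, 78.1 and 74.7 in Bred KO, narrow groups far apart, with a log2 fold change of -0.79 ± 0.12 (SE) and an adjusted p of 0.00771. Ugt1a6b, whose family handles small phenols, had 12.2, 8.99 and 9.51 FPKM in WT and 7.50, 6.44 and 7.21 in KO, with -0.66 ± 0.13 and an adjusted p of 0.0178. Ugt1a6b did not pass without Bred KO replicate 2 (adjusted p 0.0579) or replicate 3 (0.0558). With the counts of all Ugt1a genes summed, most of them Ugt1a9 counts, the log2 fold change was -0.74 with an adjusted p of 0.00845. Reads of the common exons that were counted for no gene would be missing from this sum as well. Ugt1a1 did not pass, at 4.14, 3.70 and 2.01 FPKM in WT and 2.11, 6.81 and 3.26 in KO (0.22, adjusted p 0.766), nor did Ugt1a5 (-0.57, adjusted p 0.630) or Ugt1a7c (-0.03, adjusted p 0.968).

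Of the Ugt2 genes, which conjugate steroids and bile acids among others, 4 fell in Bred KO: Ugt2b5, Ugt2b36, Ugt2b34 and Ugt2a3. Ugt2b5 had 510, 266 and 295 FPKM in Bred WT livers 1 to 3 and 251, 120 and 140 in KO. The groups did not overlap and the same-numbered ratios of 0.492, 0.452 and 0.475 were nearly alike. Its log2 fold change was -1.20 ± 0.26 (SE) with an adjusted p of 0.0235. Ugt2b36, which shares the promoter run shown above with Ugt2b5, had 406, 260 and 261 FPKM in WT and 231, 142 and 134 in KO, with -1.0 ± 0.21 and an adjusted p of 0.0223. Ugt2b34 had 198, 133 and 152 FPKM in WT and 115, 69.8 and 93.6 in KO, with -0.93 ± 0.18 and an adjusted p of 0.0148. In each of these 3 genes liver 1 was the highest of its genotype.

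Some of these calls rested on single libraries. Ugt2b5 did not pass without Bred WT replicate 1 (adjusted p 0.0605), Bred KO replicate 2 (0.0757) or Bred KO replicate 3 (0.0768), and Ugt2b36 not without the same libraries (0.0570, 0.0693 and 0.0697). Ugt2b34 did not pass without Bred KO replicate 2 (0.0534). Ugt2a3 had 94.6, 75.3 and 64.6 FPKM in WT and 54.0, 59.6 and 38.7 in KO, with -0.73 ± 0.20 and an adjusted p of 0.0481. It lost its call in 12 of 21 alternatives, among them without Bred WT replicate 1 (0.142), Bred WT replicate 2 (0.0700), Bred KO replicate 1 (0.0703), Bred KO replicate 3 (0.151) or any single Virus library (0.0503 to 0.0713).

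Ugt2b1 and Ugt2b35 missed the threshold in the unblocked edgeR test of all libraries and were called lower with the replicate block. Ugt2b1 had 139, 48.9 and 52.1 FPKM in Bred WT and 48.3, 38.8 and 35.4 in Bred KO, so that WT liver 1 stood far above the rest. Its log2 fold change was -1.10 with an adjusted p of 0.0692, and -0.93 with 0.0349 under the block. Ugt2b35 had 192, 78.5 and 104 FPKM in WT and 110, 61.7 and 69.6 in KO, overlapping, with -0.77 and an adjusted p of 0.119, and -0.70 with 0.0227 under the block. Ugt2b38, at 0.0777 to 0.695 FPKM in WT and 0.0263 to 0.263 in KO, did not pass (-1.38, adjusted p 0.389), and neither did Ugt2b37 (-0.24, adjusted p 0.872).

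The Ugt3a genes, whose human counterparts use sugars other than glucuronic acid, had the lowest estimates. Ugt3a2 had 37.2, 48.0 and 36.1 FPKM in Bred WT and 15.9, 12 and 19.1 in Bred KO, well separated, with a log2 fold change of -1.50 ± 0.26 (SE) and an adjusted p of 0.00919. Ugt3a1 had 3.16, 4.82 and 6.01 in WT and 2.29, 0.533 and 1.96 in KO, also without overlap, with -1.70 and an adjusted p of 0.0821. Ugt3a2 kept its call without each single library, and it, Ugt1a9 and Sult1e1 were the 3 called members that did so. Fitted alone, the Bred groups gave -1.49 with an adjusted p of 0.0607 for Ugt3a2.

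**Figure D4:**
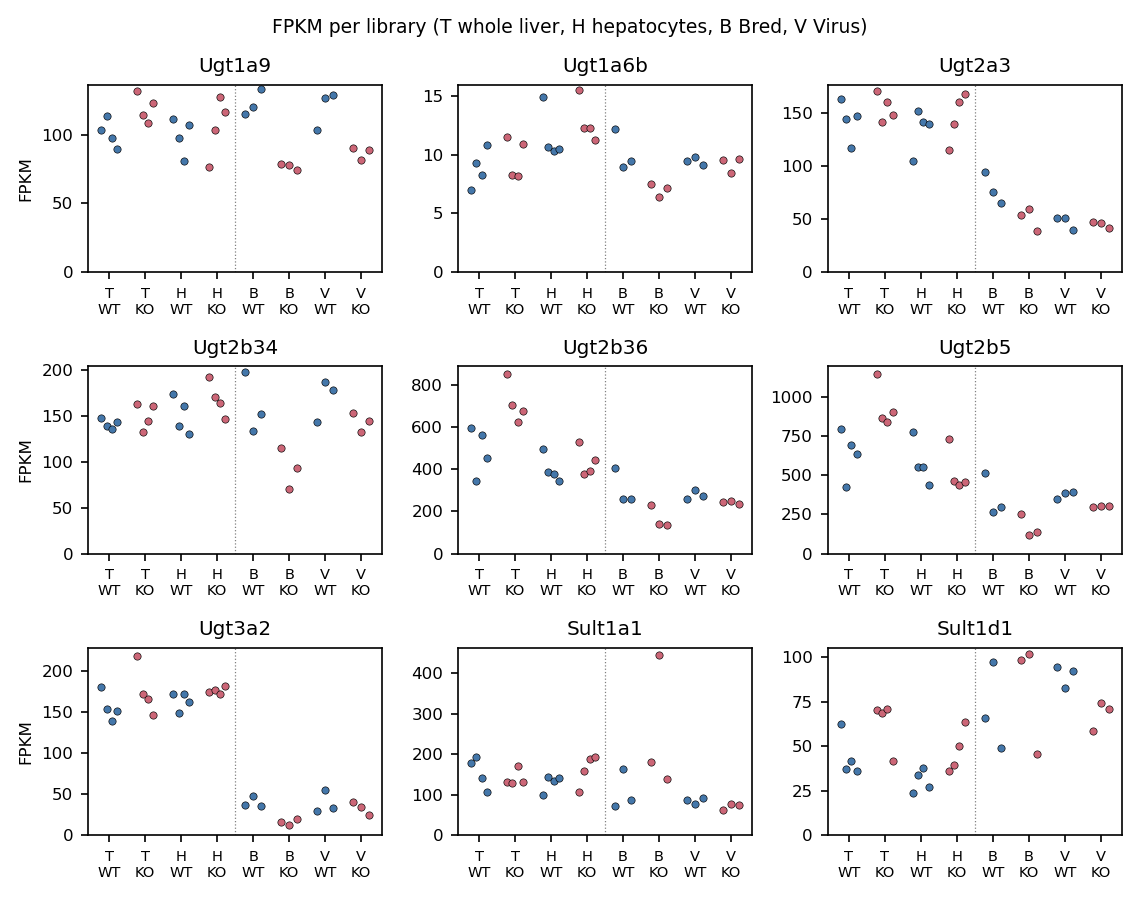
FPKM per library, on axes that start at 0, of the 7 Ugt genes called lower in Bred KO and of Sult1a1 and Sult1d1, with groups on the x axis (T whole liver, H hepatocytes, B Bred, V Virus), WT in blue and KO in red. Ugt2b5, Ugt2b36 and Ugt2b34 have lower Bred KO than Bred WT points, and Sult1a1 has a single high point of 445 FPKM, Bred KO replicate 2.

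In the Virus arms, where Cre was delivered to hepatocytes by vector, 1 of the 22 tested members was called, Ugt1a9, which was lower. Over all genes 2.66% were called, 1.25% lower. The median log2 fold change was -0.41 over the members and 0.01 over all genes, and 18 of the 22 estimates were below 0. At an unadjusted p under 0.05 there were 4 of the 22 members, and 2612 of the 13955 genes tested. On the normalised scale 10 of the 22 had KO below WT with no overlap, against 32.3% of all genes in either direction.

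Ugt1a9 had 103, 127 and 129 FPKM in the Virus WT livers and 90.5, 82.0 and 89.1 in the KO livers, with no overlap. Its log2 fold change was -0.63 ± 0.12 (SE) with an adjusted p of 0.0220, and -0.58 with 0.0285 for the summed Ugt1a counts. It did not pass without Virus WT replicate 2 (0.0690) or 3 (0.0718) or any of the 3 Virus KO libraries (0.0806 to 0.0843), which takes the count of called members to 0 without Virus WT replicate 3 or any Virus KO library. Ugt2b5 had 346, 389 and 390 FPKM in Virus WT and 299, 301 and 302 in KO, again without overlap, but with -0.48 and an adjusted p of 0.335. Ugt2b34 had -0.41 (adjusted p 0.244), Ugt2b36 -0.37 (0.369), Ugt3a2 -0.40 (0.415), Ugt1a6b -0.21 (0.432), Ugt2a3 -0.23 (0.590) and Sult1a1 -0.42 (0.627), all short of the threshold in the unblocked edgeR test of all libraries. The count of called members rose to 6 when the Virus groups were fitted alone. With the replicate block Ugt1a9 (adjusted p 0.0291), Ugt2b5 (0.0373) and Sult1e1 (0.0440) were called lower. The share of all genes called in these 2 fits is not given here.

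Sult1e1 had a negative estimate in the Virus arms. It had 26.5, 1.86 and 14.3 FPKM in the null-vector livers and 0.554, 1.71 and 2.13 in the Cre-vector livers, and in FPKM the lowest WT value lay below the highest KO value. The log2 fold change was -3.46 ± 0.96 (SE) with an adjusted p of 0.0744, which did not pass. It passed in 6 of 21 alternatives, among them without Virus WT replicate 2 (-3.98, adjusted p 0.0393), with DESeq2 (0.0319) and with the Virus groups fitted alone (0.0293). An exact permutation test gave p = 0.1, the smallest possible.

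The change with genotype in the Bred arms minus that in the Virus arms was tested directly. Sult1e1 was the 1 called member of 22, with a log2 difference of 9.67 ± 1.44 (SE) and an adjusted p of 0.00530. It ranked 2nd by size and 36th by p of all genes tested, of which 3.21% were called. It was called in all 20 alternatives, at 6.91 to 11.17. Sult1c2 (-1.47, adjusted p 0.119), Ugt3a2 (-1.10, 0.119) and Sult1a1 (1.59, 0.161) were next and did not pass. At an unadjusted p under 0.05 there were 5 of the 22 members, and 2459 of the 13955 genes tested. Without Virus WT replicate 2 there were 2 called members. With the replicate block 4 members were called: Sult1e1 (9.37, adjusted p 0.00399) and Sult1a1 (1.45, 0.0145), higher in Bred than in Virus, and Ugt2b5 (-0.72, 0.0294) and Ugt2b36 (-0.64, 0.0497), lower. That blocked fit also paired the Virus livers by number, whose same-numbered correlations were -0.0619 to -0.0416. The additional calls therefore rest in part on a pairing that the Virus libraries did not show. Since the share of all genes called with the block is not given here, they cannot be read as particular to the members. For the other 5 Ugt genes called lower in Bred KO, a difference between the arms did not pass in either fit.

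The control livers of the arms differed in Sult1e1 as well. Virus WT lay above Bred WT by 4.42 ± 1.04 (SE) on the log2 scale with an adjusted p of 0.0140, with 1.86 to 26.5 FPKM against 0.121 to 1.59. Ugt2a3 was lower in Virus WT, at 50.7, 50.8 and 39.4 FPKM against 94.6, 75.3 and 64.6, by -0.70 ± 0.20 with an adjusted p of 0.0316. These were the 2 called members of 22, against 16.4% of all genes, and the count was 0 without Virus WT replicate 1 and 1 without Bred WT replicate 1 or 2 or Virus WT replicate 2 or 3. The vector and the cross cannot be told apart in this comparison.

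Averaged over both methods, 6 members were called, all lower: Ugt1a9 (-0.71, adjusted p 0.00332), Ugt3a2 (-0.95, 0.0132), Ugt2b34 (-0.67, 0.0136), Ugt2b5 (-0.84, 0.0214), Ugt1a6b (-0.43, 0.0214) and Ugt2b36 (-0.68, 0.0217). Over all genes 6.41% were called and 3.15% lower. All 15 tested Ugt genes had an estimate below 0, with a median of -0.67, and the median over the 22 members was -0.44 against 0.00 over all genes. Sult1e1, whose estimates had opposite signs in the arms, had 1.37 with an adjusted p of 0.248. With the replicate block 9 members were called, all lower, the additional ones being Ugt2a3 (-0.48, adjusted p 0.0154), Ugt2b1 (-0.65, 0.0342) and Ugt2b35 (-0.65, 0.00906). Here too the block paired the Virus livers by number, a pairing that those libraries did not show. The share of all genes called with the block is not given here, so the added calls cannot be read as particular to the members. The count fell to 3 without Bred KO replicate 3, Virus WT replicate 2, Virus KO replicate 1 or Virus KO replicate 3, while Ugt1a9, Ugt3a2 and Ugt2b34 kept their call in every alternative run.

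**Figure D5:**
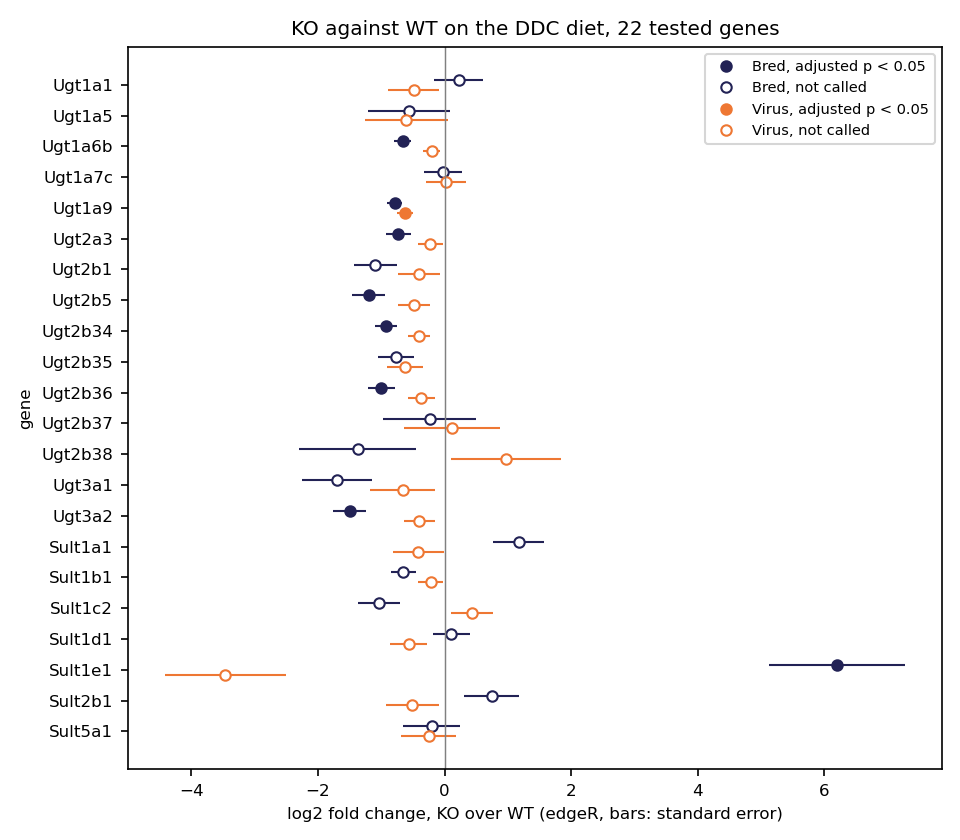
Log2 fold change of KO over WT on the DDC diet for the 22 tested members, Bred in dark blue and Virus in orange, as points with the standard error as bars, filled where the adjusted p was under 0.05. Sult1e1 lies at 6.20 in Bred and -3.46 in Virus, and most Ugt genes lie left of 0 in both.

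The genes that feed and clear the 2 reactions were examined as lists. Of 6 tested genes of UDP-glucuronate supply, 2 were lower in Bred KO, Ugdh, which oxidises UDP-glucose to UDP-glucuronate (-0.89, adjusted p 0.0337), and Ugp2, which makes UDP-glucose (-0.72, 0.0365), with a list median of -0.51. None passed in Virus, where the median was -0.45. Over both methods 3 were lower, Ugp2 (-0.61, 0.0192), Ugdh (-0.73, 0.0205) and Slc35d1, which carries the nucleotide sugar into the endoplasmic reticulum (-0.58, 0.0281). Of 10 tested genes of PAPS supply and return, only Bpnt1, which removes the spent donor, was called in Bred (-0.42, 0.0269) and over both methods (-0.38, 0.0115), and the Bred list median was -0.13. Of 5 efflux transporters of conjugates, Abcg2 was lower in Bred (-0.91, 0.0280), Abcc4 in Virus (-1.25, 0.0261), and Abcc2 (-0.66, 0.0243), Abcc4 (-0.96, 0.0128) and Abcg2 (-0.63, 0.0285) over both. The medians over all genes were -0.01 in Bred and 0.01 in Virus.

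Some regulators, and more of the NRF2 targets, were called. Of 19 tested regulators, Ahr, the dioxin receptor, was higher in Bred KO (0.77, adjusted p 0.0431), Ppara, the fatty acid receptor, was lower (-1.04, 0.0394), and Nr1h4, the bile acid receptor, was lower in Bred (-0.60, 0.0247) and higher in Virus (1.17, 0.00145). Of 8 tested NRF2 targets, Hmox1 was higher in Bred (0.99, 0.0270) and 3, Gclm, Gsta1 and Gstm1, were lower, while Nqo1 and Txnrd1 were lower in Virus. Over both methods 6 of the 8 were lower, Nqo1, Gclc, Gclm, Txnrd1, Gsta1 and Gstm1, and the list medians were -0.57 in Bred, -0.99 in Virus and -0.75 over both. Of 5 PPARA targets 0 were called in Bred, and Pdk4 and Ehhadh were lower in Virus (-1.36 and -1.02) and over both (-0.70 and -0.91). None of 6 tested CAR and PXR targets was called in Bred, in Virus or over both. Of 4 tested AHR targets 0 were called in Bred and 2, Cyp1a2 and Tiparp, were lower in Virus, with 1, Tiparp, lower over both.

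Genes that differ between the sexes were listed because Sult1e1 and some Ugt2b genes are hormone-responsive. Of 9 tested male-biased genes 5 were lower in Bred KO, namely Cyp4a12a (-4.40), Cyp4a12b (-3.20), Mup20 (-3.14), Cyp7b1 (-1.17) and Cyp2d9 (-0.54), with a list median of -2.48. In Virus 1 was called, lower, and the median was -0.17. Of 6 tested female-biased genes, Cyp2a4 was lower in Bred (-2.03, adjusted p 0.0264) and the median was 0.50. The part of these changes in the Sult1e1 result was not tested.

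Markers of other cells also moved with genotype on the diet. Of 8 stellate cell and fibroblast markers 5 were higher in Bred KO, 1 in Virus KO and 7 over both methods. Their summed FPKM was 86.7 to 144 in Bred WT, 207 to 314 in Bred KO, 91.0 to 124 in Virus WT and 166 to 221 after deletion by vector, without overlap in either arm. Of 8 hepatocyte markers 2, Apob and Ttr, were called lower in Bred KO, but 5 of the 8 had a higher estimate and the list median was 0.09. The summed FPKM of the hepatocyte markers was 29278 to 30674 in Bred WT and 27991 to 40231 in Bred KO, overlapping. No bile duct, macrophage, endothelial or lymphocyte marker was called in Bred KO. The summed FPKM of 6 macrophage markers was nonetheless 227 to 338 in Bred WT and 349 to 501 in Bred KO, and that of 6 endothelial markers 55.0 to 63.3 and 68.7 to 75.5, both without overlap. In the Virus arms the macrophage sum was 315 to 364 in WT and 269 to 331 in KO, and the endothelial sum 70.2 to 77.3 and 71.9 to 77.8, both overlapping. The part of cell composition in the lower Ugt levels was not tested.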

How the data were processed

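RNA of 28 libraries was sequenced after removal of rRNA. Per the study's methods and the submitters' processing notes, the authors mapped reads with STAR to mm10 and counted them with HTSeq 0.6.1. The strand and overlap settings of the counting are not given in the sources used here. The deposited tables hold raw counts per gene and FPKM values made by the authors. Recomputing FPKM from counts and lengths gave the deposited values to within 4.98e-10 percent. The counts were tested with edgeR 4.0.16 (R 4.3.3): TMM scaling, genes kept by filterByExpr (minimum count 10, minimum total 15), quasi-likelihood F test in a model of 4 groups per experiment, Benjamini-Hochberg adjustment over all genes tested (12507 unfed, 13955 DDC, 11857 in the model over both materials), with calls made below 0.05. The biological coefficient of variation was 0.235 (12 residual degrees of freedom) and 0.204 (8). Exact two-sided permutation tests used log2(CPM + 1).

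The labels number the replicates and state no pairing. In the Bred arms the correlations of same-numbered deviations were 0.268 to 0.320 against -0.219 to -0.0724 for other pairs, and the numbers were taken as pairs there. They did not pair the other arms, although the replicate block held terms for the numbers of every arm. No libraries were duplicates (chi-square per degree of freedom between replicates at least 14.9). P-values measure the spread between these libraries. The members and lists were chosen with earlier results of these data known. Genes named were Sult1e1, called members, the 3 smallest p per genotype comparison, the most abundant member of a subfamily and called list genes; other members were added to complete a subfamily. Alternatives were DESeq2 1.42.0, its size factors, limma 3.58.1 on log2(FPKM + 1), no count filter, removal of the length trend, a replicate block, groups fitted alone, summed Ugt1a counts and leaving out each replicate. Leaving out WT libraries from the unfed over DDC-fed level ratios was chosen after seeing the data. The statistics were tested on simulated data.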

Additional observations from a re-analysis of the deposited data

Results flagged for a closer look

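In groups of 4 libraries, a library whose gap to its nearest neighbour took up most of the range of the group was marked, and chance marks about 1 in 20 of the 44 groups examined. Sult1d1 had 41.9 FPKM in Tissue KO replicate 4 and 68.7 to 70.7 in the other 3. Ugt1a1 had 8.79 FPKM in Hepatocyte WT replicate 4 and 3.87 to 4.67 in the others. Ugt1a6b had 15 FPKM in Hepatocyte WT replicate 1 against 10.3 to 10.7. Ugt2b5 had 732 FPKM in Hepatocyte KO replicate 1 against 439 to 462.

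The change of Sult1e1 with genotype differed between the Bred and the Virus arms by 9.67 on the log2 scale (edgeR, adjusted p 0.00530), the 1 such difference among the 22 tested members.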

How the results depend on the processing

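With 3 libraries a group, 8 residual degrees of freedom and calls near the threshold, the counts of called members moved more than the estimates. Of 27 named values in 594 alternative fits, 540 kept direction and side of the threshold, 47 lost the call, 7 gained it and 0 reversed. The 540 include values that were not called in the main fit and stayed uncalled, and all 47 losses fell on values called there. The Sult1e1 change in Bred was not among the 27 and lost its call in 1 of 21 alternatives. In Bred (8 called) the count was 12 with the replicate block, 13 with the replicate block and the length trend removed, 11 with DESeq2, 7 with limma, 0 with the groups fitted alone (adjusted p of Sult1e1 0.0615 at 6.21) and 4 to 10 with single replicates left out. In Virus (1 called) it was 2 with DESeq2, 2 with no count filter, 3 with the block, 4 with block and length trend, 6 with the groups fitted alone and 0 to 1 with replicates left out. Over both methods (6 called) it was 10 with DESeq2, 10 with no count filter, 9 with the block, 10 with block and length trend and 3 to 9 with replicates left out. For the Bred minus Virus difference (1 called) it was 3 with DESeq2, 4 with the block, 3 with block and length trend and 1 to 2 with replicates left out. For Virus WT against Bred WT (2 called) it was 0 to 2 with replicates left out. Unfed whole liver (0 called) gave 0 to 1 with replicates left out. Hepatocyte against tissue in WT (0 called) gave 1 with DESeq2, 1 with DESeq2 size factors, 1 with the length trend removed, 5 without Tissue WT replicates 2 and 4, and 0 to 1 with single replicates left out. The share of all genes called is not given here for these alternatives. The cause of these moves was not tested. The block changed no other count by over 1.5 times. In Tissue (same-number correlations -0.120 to 0.249), Hepatocyte (-0.272 to 0.189) and Virus (-0.0619 to -0.0416) libraries shared only a number.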
